A study of Arabidopsis thaliana with 12 samples.

Results

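The ATG8 genes of Arabidopsis thaliana encode the small ubiquitin-like proteins that coat the growing autophagosome. The 9 loci ATG8A (AT4G21980), ATG8B (AT4G04620), ATG8C (AT1G62040), ATG8D (AT2G05630), ATG8E (AT2G45170), ATG8F (AT4G16520), ATG8G (AT3G60640), ATG8H (AT3G06420) and ATG8I (AT3G15580) were taken as members by name. All 9 of the 9 loci were measured, each by 1 probe set. They are 9 of the 17481 probe sets that were paired with a gene and tested, out of 38408 on the array.

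In autophagy a double membrane closes around cytoplasm and is delivered to the vacuole, where the contents are broken down and reused. An ATG8 protein is trimmed by the protease ATG4, activated by ATG7, passed to ATG3 and joined to the lipid phosphatidylethanolamine with the help of the ATG12, ATG5 and ATG16 proteins, after which it binds the receptors that bring in cargo. The ATG1 and ATG13 kinase complex starts the process, and the nutrient-sensing kinase TOR, which works with the adaptor protein RAPTOR, holds it back when nutrients are plentiful. A seedling that germinates in the dark lives on its seed reserves and recycled material until light lets it green.

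Affymetrix Gene 1.0 ST arrays measured total RNA of the Col-0 ecotype in 4 groups of 3 biological replicates, 1 array for each pool of whole seedlings. WT and rb10 seedlings were each 5 days old, and every group had grown in darkness on half-strength MS without sucrose. The dark groups were collected at that point, and the light groups after a further 1 h of white light at 120 µmol per square metre per second. The labels name rb10 only as a genotype, and it is known of the study as a mutant of RAPTOR1B. The labels do not give the lesion or the number of lines, so rb10 is treated here as 1 genotype. Pooling averages over seedlings and organs, and in whole seedlings fewer cells of a type and less RNA per cell cannot be told apart.

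One array lay nearer to WT dark than to its label. RAPTOR1B was at 11.84, 11.66 and 11.63 log2 signal in WT dark, and at 11.06 and 11.08 in the first and second rb10 dark replicates. On the array labelled rb10 dark replicate 3 it was at 11.60, just below every WT dark array. After light it was at 11.62, 11.69 and 11.58 in WT and at 10.90, 10.89 and 11.13 in rb10, where it was lower by limma (log2 difference -0.66, SE 0.15, adjusted p = 0.0113). Over all tested probe sets the array labelled rb10 dark replicate 3 correlated with WT dark at a mean r of 0.9909 and with its own label at 0.9796. Results that rest on this array are therefore given with and without it. Of the marker genes listed for cell types in a whole seedling, 8 of 21 were measured: 1 of 6 for root, 3 of 4 for photosynthetic cells, 3 of 4 for the stomatal lineage, 1 of 2 for etioplasts and none of the vascular or seed markers. Values are the deposited log2 signals, which hold no counts, so precision is limited by the number of arrays, and signals are not compared between genes because each probe set responds differently. Members of a gene family may share probes, which was not tested because probe sequences were not used here.

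**Figure D1:**
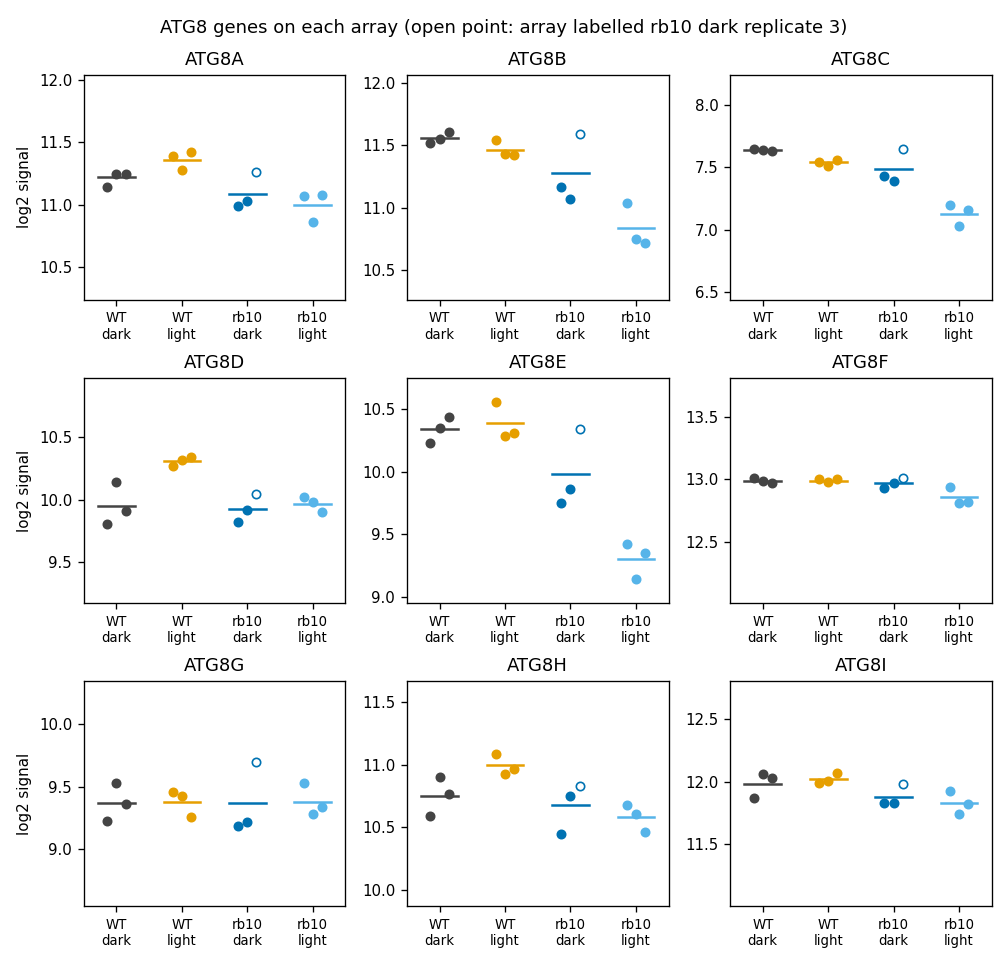
Deposited log2 signal of the 9 ATG8 genes on each of the 12 arrays, 1 panel per gene, with the 3 arrays of each group as points, the group mean as a bar, and the array labelled rb10 dark replicate 3 drawn open. ATG8E in rb10 light, at 9.14 to 9.42, lies below every WT array, and the open point lies above the other rb10 dark arrays in all 9 panels.

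The clearest difference was between the genotypes after 1 h of light. ATG8 transcripts were lower in rb10 than in WT for 6 of the 9 genes at an adjusted p under 0.05, against 9.47% of all tested probe sets called lower in that comparison, and none of the 9 was called higher, against 9.72%. The median log2 difference was -0.36 over the 9 genes and -0.016 over all tested probe sets. ATG8E, whose WT level was 2.12 times that of rb10, had the largest difference of the 9. All 3 rb10 arrays lay below all 3 WT arrays for 8 of the 9 genes, against 19.7% of all tested probe sets, and ATG8G was the exception.

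ATG8E belongs with ATG8F and ATG8G in one subgroup of the family. It was at 10.23, 10.35 and 10.44 log2 signal in WT dark and at 10.56, 10.29 and 10.31 in WT light. In rb10 it was at 9.75, 9.86 and 10.34 in the dark and at 9.42, 9.14 and 9.35 after light. The rb10 light arrays were the lowest of the 12, and the 10.34 of the array labelled rb10 dark replicate 3 sat within the WT dark range while its fellows sat below it. After light the log2 difference between rb10 and WT was -1.09 (SE 0.16, 95% interval -1.43 to -0.74, adjusted p = 0.00125), and it was called in all 19 alternative fits.

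ATG8B and ATG8C belong to the subgroup of ATG8A to ATG8D, whose products, like those of ATG8E to ATG8G, run on past the conserved glycine and have to be trimmed by ATG4 before lipid can be attached. ATG8B was at 11.52, 11.55 and 11.61 in WT dark, at 11.54, 11.43 and 11.42 in WT light, at 11.17, 11.07 and 11.59 in rb10 dark and at 11.04, 10.75 and 10.72 in rb10 light. Its WT arrays lay within a narrow band, and every rb10 light array was below every other array. The genotype difference after light was -0.63 (SE 0.14, 95% interval -0.94 to -0.31, adjusted p = 0.0117) and was called in all 19 alternative fits. ATG8C was at 7.65, 7.64 and 7.63 in WT dark, at 7.54, 7.51 and 7.56 in WT light, at 7.43, 7.39 and 7.65 in rb10 dark and at 7.20, 7.03 and 7.16 in rb10 light. Its order over groups was that of ATG8B. Its difference after light was -0.41 (SE 0.10, 95% interval -0.62 to -0.19, adjusted p = 0.0158), called in 16 of 19 alternative fits.

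ATG8A and ATG8D of the same subgroup, and ATG8H, passed more narrowly. ATG8A was at 11.39, 11.28 and 11.42 in WT light and at 11.07, 10.86 and 11.08 in rb10 light, a log2 difference of -0.36 (SE 0.11, adjusted p = 0.0409). ATG8D was at 10.27, 10.32 and 10.34 in WT light and at 10.02, 9.98 and 9.90 in rb10 light, a difference of -0.34 (SE 0.11, adjusted p = 0.0484). For both genes the genotypes did not overlap after light. ATG8H, which together with ATG8I makes a protein that already ends in the glycine and needs no trimming, was at 11.09, 10.93 and 10.97 in WT light and at 10.68, 10.61 and 10.46 in rb10 light, a difference of -0.41 (SE 0.13, adjusted p = 0.0453). ATG8A was called in 9 of 19 alternative fits, and ATG8D and ATG8H in 8 each.

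The other members did not pass the test after light. ATG8I lay between 11.99 and 12.07 in WT light and between 11.74 and 11.93 in rb10 light, with a difference of -0.20 (95% interval -0.41 to 0.02, adjusted p = 0.198). ATG8F was at 12.99 ± 0.01 (SD, n = 3) in WT light and 12.86 ± 0.07 in rb10 light, with a difference of -0.13 (95% interval -0.32 to 0.05, adjusted p = 0.304). Both sets of arrays were apart but close together. ATG8G lay between 9.26 and 9.46 in WT light and between 9.28 and 9.53 in rb10 light, so that the genotypes overlapped, and its interval ran from -0.33 to 0.33 around a difference of 0.00.

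**Figure D2:**
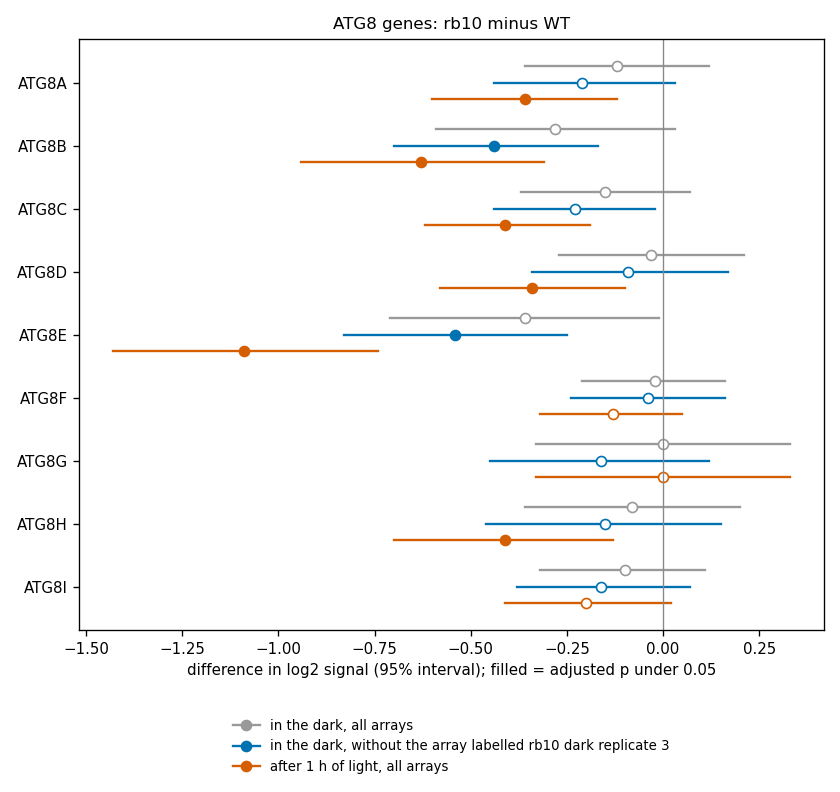
Log2 difference between rb10 and WT with its 95% interval for the 9 ATG8 genes, after light and in the dark, the dark values with the array labelled rb10 dark replicate 3 kept and left out, filled where the adjusted p was under 0.05. After light ATG8E stands at -1.09 and 6 genes are filled, whereas in the dark only ATG8E and ATG8B are filled, and only without that array.

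The direction of the 6 could not turn when a single array was left out, because their genotypes did not overlap after light. The count of 6 depended on single arrays. It was 3 without WT light replicate 1, WT light replicate 2, rb10 light replicate 1, rb10 light replicate 3, WT dark replicate 3 or rb10 dark replicate 2, and 2 without WT light replicate 3 or rb10 light replicate 2. With the array labelled rb10 dark replicate 3 left out it stayed at 6, against 11.8% of all tested probe sets called lower, and the adjusted p was 0.000146 for ATG8E and 0.00208 for ATG8B. The split of all calls into higher and lower also depended on scaling: of the 3355 tested probe sets called after light 50.7% were higher in rb10, and 30.4% of 3816 when each array was shifted to an equal median. That shift moved the median of all tested probe sets to -0.166, and the ATG8 median to -0.51 with 7 of 9 genes called lower, ATG8I having joined at -0.34 (adjusted p = 0.0455). Array medians ran from 6.72 to 6.82 in WT and from 6.88 to 6.91 in rb10, except at 6.78 on the array labelled rb10 dark replicate 3.

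Markers of other cells and states also moved between the genotypes after light. The stomatal gene SPCH was higher in rb10 (log2 difference 1.24, adjusted p = 0.00261), and so was RCA of photosynthetic cells, the Rubisco activase (0.48, adjusted p = 0.0129). The other photosynthetic markers were at 0.24 for LHCB1.5 (adjusted p = 0.693) and -0.48 for LHCB4.1 (adjusted p = 0.0551; 0.00958 with the array labelled rb10 dark replicate 3 left out). The other stomatal markers were at 0.69 for MUTE (adjusted p = 0.352) and 0.04 for FAMA (0.958). The root marker EXPA7 was at 0.41 (adjusted p = 0.394) and PORB of etioplasts at -0.22 (0.569). The summed signal of the 3 stomatal markers was at 7.35 to 7.82 (log2 of the sum) in WT light and at 7.88 to 8.54 in rb10 light, and that of the 3 photosynthetic markers at 11.98 to 12.20 and 12.13 to 12.42. EXPA7 ran from 5.09 to 5.23 in WT light and from 5.21 to 6.13 in rb10 light. The part of these markers in the ATG8 differences was not tested.

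In the dark no ATG8 gene passed the test between the genotypes when all arrays were used. By limma 0 of 9 were called, against 0.00572% of all tested probe sets. At an unadjusted p under 0.05 there was 1 of 9, ATG8E, against 14.9%. The ATG8E difference was -0.36 (95% interval -0.71 to -0.01, adjusted p = 0.321) and that of ATG8B was -0.28 (95% interval -0.59 to 0.03, adjusted p = 0.378). No gene of the 9 was apart between the groups, against 8.55% of all tested probe sets apart and lower and 7.45% apart and higher.

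The array labelled rb10 dark replicate 3 was above both other rb10 dark arrays for all 9 genes, within the WT dark range for 6 and above that range for 3, namely ATG8A, ATG8C and ATG8G. Without it ATG8E was lower in rb10 by 2 arrays against 3 (log2 difference -0.54, SE 0.13, 95% interval -0.83 to -0.25, adjusted p = 0.0291), as was ATG8B (-0.44, SE 0.12, 95% interval -0.70 to -0.17, adjusted p = 0.0459). These were 2 of 9 genes, against 4.39% of all tested probe sets called lower. The other rb10 dark arrays lay below every WT dark array for 6 of 9 genes, ATG8A, ATG8B, ATG8C, ATG8E, ATG8G and ATG8I, against 23.3% of all tested probe sets. ATG8C was at -0.23 (adjusted p = 0.159). The median over the 9 genes was -0.16, and that over all tested probe sets -0.03. The array was set aside with all values known, so these are not a separate test of the rb10 effect. In the same fit LHCB1.5 and LHCB4.1 of photosynthetic cells were lower in rb10 (-1.09, adjusted p = 0.0279, and -0.46, adjusted p = 0.0432), and PORB, an etioplast marker that makes chlorophyllide in light, was higher (0.97, adjusted p = 0.00582). The third photosynthetic marker, RCA, lay on the other side at 0.30 (adjusted p = 0.166) with the groups apart. The stomatal markers were at 1.26 for MUTE (adjusted p = 0.0806), 0.10 for FAMA (0.909) and 0.04 for SPCH (0.939), and EXPA7 was at 0.43 (0.506). With all arrays no marker was called in the dark by limma. LHCB1.5 was then at -0.64 (adjusted p = 0.422), LHCB4.1 at -0.27 (0.452) and PORB at 0.67 (0.255). The part of the markers in the ATG8 values was not tested.

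In WT, 1 h of light moved no ATG8 gene past the threshold. By limma 0 of 9 were called, against 6.89% of all tested probe sets. At an unadjusted p under 0.05 there was 1 of 9, ATG8D, against 18.9%. ATG8D was at 9.81, 10.14 and 9.91 in WT dark and above all of these after light. Its difference was 0.36 (SE 0.11, 95% interval 0.12 to 0.59, adjusted p = 0.0842), and it was called without WT dark replicate 2 (0.45, adjusted p = 0.0475) and under a robust, trended prior (0.0358). The groups were apart and higher after light for ATG8A, ATG8D and ATG8H, 3 of 9 against 11.1% of all tested probe sets, and apart and lower for ATG8C, 1 of 9 against 16.5%. ATG8H was at 0.24 (95% interval -0.04 to 0.53, adjusted p = 0.348) and ATG8A at 0.15 (95% interval -0.09 to 0.39, adjusted p = 0.535). ATG8E, at 0.05 (95% interval -0.30 to 0.39), overlapped between dark and light.

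In rb10, ATG8E fell after light, as 1 of 9 genes called, against 3.75% of all tested probe sets called lower. Its log2 difference was -0.68 (SE 0.16, 95% interval -1.03 to -0.33, adjusted p = 0.0247), and its 3 light arrays lay below its 3 dark arrays. With the array labelled rb10 dark replicate 3 left out, the difference was -0.50 (SE 0.13, 95% interval -0.79 to -0.21), with an adjusted p just under the threshold that rounds to 0.05, against 3.16% of all tested probe sets called lower. The call was lost without rb10 light replicate 2 (-0.60, adjusted p = 0.0993), without rb10 light replicate 3 (-0.70, adjusted p = 0.0627) and in a fit of the rb10 arrays alone (adjusted p = 0.123). ATG8C was at -0.36 (95% interval -0.58 to -0.14, adjusted p = 0.0521) and ATG8B at -0.44 (95% interval -0.75 to -0.13, adjusted p = 0.0977). With ATG8E these made 3 of 9 genes apart and lower, against 13.7% of all tested probe sets. With the array labelled rb10 dark replicate 3 left out, ATG8C was at -0.28 (adjusted p = 0.13) and ATG8B at -0.29 (adjusted p = 0.238). The remaining 6 members ran from -0.11 for ATG8F to 0.04 for ATG8D with all arrays. Without that array they ran from -0.09 for ATG8F to 0.18 for ATG8G (95% interval -0.11 to 0.46, adjusted p = 0.549), whose light arrays then lay above its dark arrays, as they did for 15.9% of all tested probe sets.

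Markers also moved with light in rb10. RCA was higher after light (0.72, adjusted p = 0.00247; 0.69 and 0.00881 with the array labelled rb10 dark replicate 3 left out, here and in the next pairs) and PORB was lower (-1.27, adjusted p = 0.00708; -1.57 and 0.000381). FAMA, a stomatal gene, was at -1.30 (adjusted p = 0.0416; -1.29 and 0.0977), and LHCB1.5 at 1.03 (adjusted p = 0.12; 1.48 and 0.00758). The other markers, EXPA7, MUTE, SPCH and LHCB4.1, did not pass in either fit. In WT, RCA was higher (0.51, adjusted p = 0.018) and SPCH lower (-0.93, adjusted p = 0.0194) after light, FAMA was at -1.22 (0.0553), and the other 5 did not pass. The part of these markers in the ATG8 values was not tested.

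**Figure D3:**
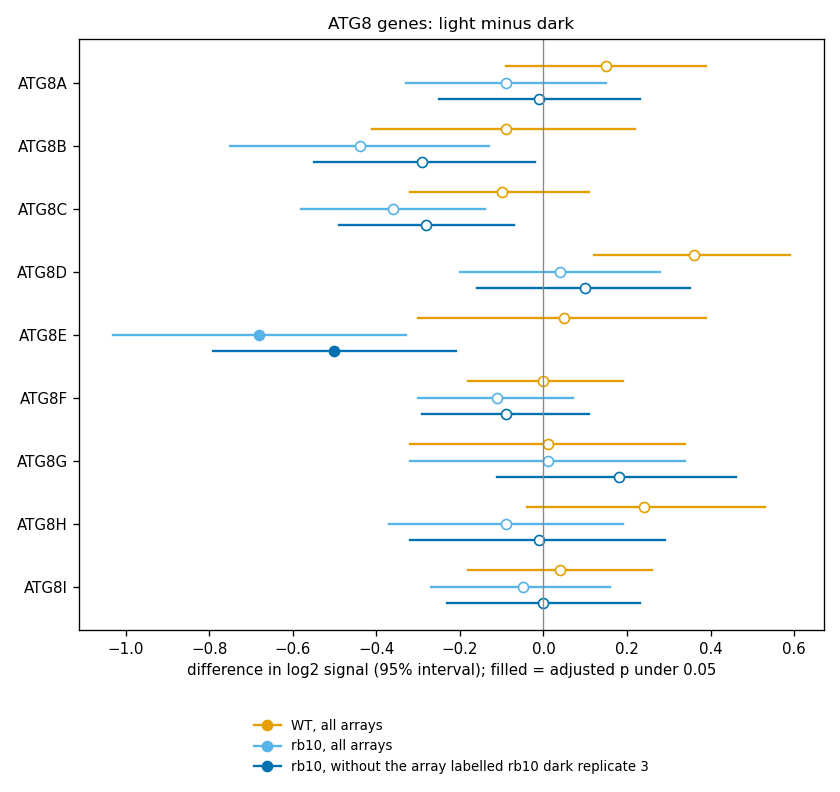
Log2 difference between light and dark with its 95% interval for the 9 ATG8 genes in WT and in rb10, the rb10 values with the array labelled rb10 dark replicate 3 kept and left out, filled where the adjusted p was under 0.05. ATG8E in rb10, at -0.68 and -0.50, is the filled gene, and ATG8D in WT is at 0.36 and open.

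The light effects of the 2 genotypes were not shown to differ for any ATG8 gene. In the test of the difference itself, by limma, 0 of 9 were called, against 2.17% of all tested probe sets. At an unadjusted p under 0.05 there was 1 of 9, ATG8E, against 12.6%. The ATG8E difference of light effects was -0.73 (SE 0.22, 95% interval -1.22 to -0.24, adjusted p = 0.162), and -0.55 (adjusted p = 0.182) with the array labelled rb10 dark replicate 3 left out. The median over the 9 genes was -0.26, and that over all tested probe sets 0.015. With the same array left out these medians were -0.18 and 0.021. This test and the genotype and light comparisons use the same arrays, so their values are not separate evidence.

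Across groups the members fell into 3 orders of mean. The WT groups were above the rb10 groups for ATG8A, ATG8E, ATG8F, ATG8H and ATG8I with WT light highest and rb10 light lowest, and for ATG8B and ATG8C with WT dark highest and rb10 light lowest. For ATG8D and ATG8G the order was WT light, rb10 light, WT dark and rb10 dark. Neighbouring groups could lie within the spread: ATG8E was at 10.39 ± 0.15 (SD, n = 3) in WT light and 10.34 ± 0.10 in WT dark, and the ATG8G means ran from 9.37 to 9.38 with SDs of 0.11 to 0.28 over all arrays. All 9 orders were the same with the array labelled rb10 dark replicate 3 left out, although the ATG8G mean in rb10 dark was then 9.21, with both remaining arrays below every WT dark array.

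Over the 12 arrays ATG8E varied most like AT5G65207 (Pearson r = 0.984), CYN, which encodes the cyanate-degrading enzyme cyanase (0.983), AT1G19530 (0.983), AT4G21500 (0.979) and AT4G25170 (0.977), out of 16721 single-gene probe sets ranked. ATG8B varied most like AT4G25170 (0.991), AT5G49640 (0.988), AT5G42825 (0.981), AT5G52190 (0.98) and AT2G03640 (0.98). AT4G25170 stood in both lists, at 12.11 ± 0.03 in WT dark, 12.02 ± 0.08 in WT light, 11.83 ± 0.26 in rb10 dark and 11.28 ± 0.13 in rb10 light (SD, n = 3). Among the family the closest to ATG8E were ATG8B (r = 0.961, rank 26) and ATG8C (0.945, rank 74), and the least like it were ATG8D (0.461) and ATG8G (0.278). With the array labelled rb10 dark replicate 3 left out, the r of these 10 matches lay between 0.978 and 0.99, and ATG8G was at 0.185 with ATG8E. These r values describe arrays that fall into genotype and light groups, and they carry no test.

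Of the rest of the autophagy machinery, 14 of 44 listed genes were measured. They were 2 of 9 for ATG8 conjugation, 6 of 8 for the ATG1 kinase complex, 2 of 6 for the phosphatidylinositol 3-kinase complex, where a further gene shared its probe set with a second gene, 4 of 11 for receptors and adaptors that bind ATG8, and 0 of 10 for ATG9, ATG2 and ATG18. After light 1 of 14 was called lower in rb10, near the 9.47% of all tested probe sets, and none higher, with a median of -0.08. This was ATG16, the partner of ATG12 and ATG5, at 9.04, 9.06 and 9.09 in WT light and at 8.81, 8.64 and 8.62 in rb10 light (log2 difference -0.37, SE 0.10, adjusted p = 0.0281). Its call was lost without WT light replicate 1, 2 or 3 or without rb10 light replicate 2 or 3 (adjusted p 0.0653 to 0.0882).

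ATG1B, a kinase that starts autophagosome formation, was at -0.30 after light (SE 0.10, adjusted p = 0.0547), and was called with the array labelled rb10 dark replicate 3 left out (adjusted p = 0.0477), which made 2 of 14 called lower against 11.8%. VPS38 of the lipid kinase complex was at -0.19 (adjusted p = 0.362), and SH3P2, a membrane-binding adaptor that associates with ATG8, was at -0.15 (adjusted p = 0.341). In the dark 0 of 14 were called by limma, against 0.00572% of all tested probe sets. At an unadjusted p under 0.05 there were 2 of 14, against 14.9%. They were ATG16 at -0.28 (adjusted p = 0.273) and ATG13B, the partner of ATG1, at -0.24 (0.331). DSK2B, a receptor for ubiquitinated cargo, at -0.15 (0.449), and VPS38, at -0.10 (0.764), had the smallest p of their lists but were not under 0.05 unadjusted. With the array labelled rb10 dark replicate 3 left out, ATG13B was the 1 of 14 called lower, near the 4.39% of all tested probe sets (-0.36, SE 0.09, adjusted p = 0.0381). In that fit ATG16 was at -0.35 (adjusted p = 0.052), DSK2B at -0.17 (0.325) and VPS38 at -0.16 (0.546).

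Light moved none of the 14 past the threshold in either genotype by limma, against 6.89% of all tested probe sets in WT and 7.17% in rb10. At an unadjusted p under 0.05 there were 1 of 14 in WT, against 18.9%, and 3 of 14 in rb10, against 20%. The WT count at an adjusted p under 0.05 rose to 1 without rb10 light replicate 3, without the lowest 25% of probe sets and under a robust, trended prior. The kinase gene ATG1C was at -0.41 in WT (adjusted p = 0.0544) and at -0.31 in rb10 (0.145), and VPS38 at -0.24 (0.381) and -0.33 (0.193). ATG16 was at -0.07 in WT (0.805) and at -0.16 in rb10 (0.44), and the cargo receptors were led by DSK2B at -0.14 in WT (0.448) and by DSK2A at 0.14 in rb10 (0.532). With the array labelled rb10 dark replicate 3 left out, the rb10 values were -0.28 for ATG1C (adjusted p = 0.275), -0.26 for VPS38 (0.4), -0.08 for ATG16 (0.766) and 0.17 for DSK2A (0.544). In the difference of the light effects 0 of 14 were called, against 2.17%, and 0 of 14 had an unadjusted p under 0.05, against 12.6%, and the smallest p of each list belonged to ATG1B (-0.15), ATG16 (-0.10), SH3P2 (-0.24) and ATG14B (0.09), which stood at -0.12, -0.02, -0.22 and 0.10 without that array.

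**Figure D4:**
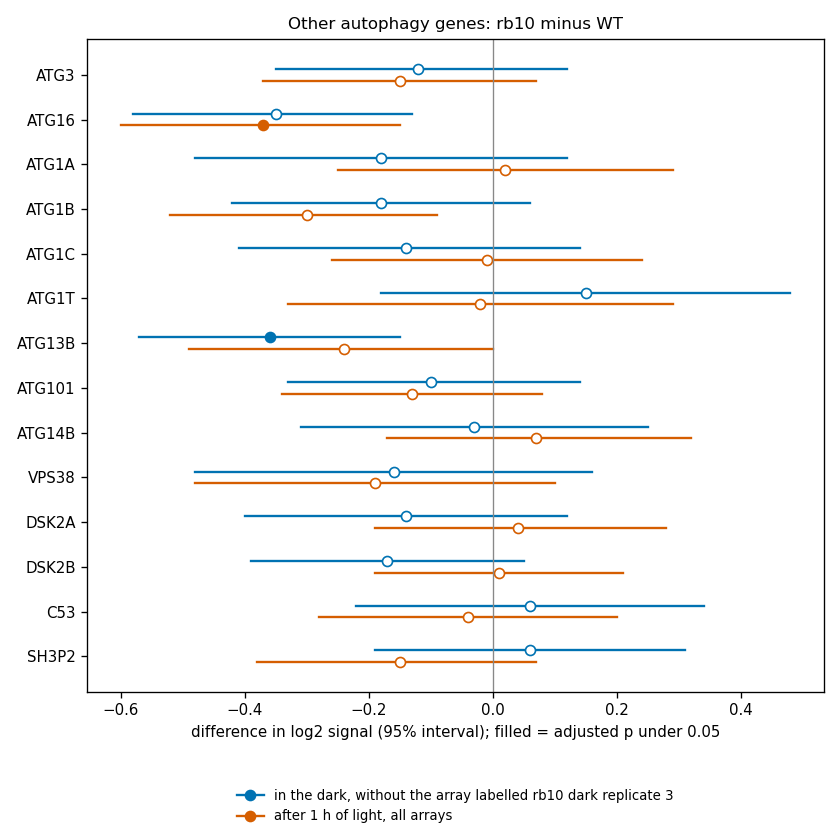
Log2 difference between rb10 and WT with its 95% interval for the 14 other measured autophagy genes, after light with all arrays and in the dark with the array labelled rb10 dark replicate 3 left out, filled where the adjusted p was under 0.05. ATG16 is filled after light, at -0.37, and ATG13B in the dark, at -0.36.

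Of the TOR and SnRK1 kinase genes, 4 of 13 were measured. After light RAPTOR1B and AKINBETA1, a subunit of the energy-sensing SnRK1 kinase, were the 2 of 4 called lower in rb10, against 9.47% of all tested probe sets. RAPTOR1B is the gene known to be mutated in rb10, so its call is a check of the labels and not a result for the list. AKINBETA1 was at 12.28, 12.34 and 12.39 in WT light and at 11.93, 11.79 and 12.03 in rb10 light (log2 difference -0.42, SE 0.10, adjusted p = 0.0134), and its call was lost without rb10 light replicate 2 (-0.36, adjusted p = 0.0565). AKINBETA1 was also the 1 of 4 that fell with light in rb10, against 3.75% (-0.42, adjusted p = 0.0258), a call lost without rb10 dark replicate 1 (0.0651), the array labelled rb10 dark replicate 3 (0.0696), rb10 light replicate 1 (0.0641) or rb10 light replicate 2 (0.105). For light in WT 0 of 4 were called by limma, against 6.89%, and 0 had an unadjusted p under 0.05, against 18.9%. RAPTOR1A, the paralogue of RAPTOR1B, was at 0.27 (adjusted p = 0.303). AKINBETA1 was at -0.15 in WT (adjusted p = 0.448), with its light arrays below its dark arrays. In the difference of the light effects 0 of 4 were called by limma, against 2.17%. AKINBETA1 was there at -0.26 (adjusted p = 0.475), and at -0.22 (0.596) with the array labelled rb10 dark replicate 3 left out. Its fall with light was therefore not shown to differ between the genotypes. In the dark RAPTOR1B was at -0.46 (adjusted p = 0.255), and at -0.64 (adjusted p = 0.00775) with the array labelled rb10 dark replicate 3 left out. That array was set aside partly for its WT-like RAPTOR1B level. Leaving it out was therefore bound to widen the RAPTOR1B difference, and the second value is not a check of the labels.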

How the data were processed

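The authors deposited a log2 signal for each probe set. RMA and GCRMA are both named, per the submitters' processing notes, without versions, and which of them made the table is not given in the sources used here. The genome build was not given in the sources used here. Probe sets were paired with genes through GEO's platform annotation and the TAIR10.1 gene table of RefSeq, used for names only, and only probe sets paired with 1 gene were named. Where a gene had several, the probe set with the highest mean stood for it. A model of 4 group means was fitted over 12 arrays to all 17481 gene-paired probe sets by lmFit and eBayes of limma 3.58.1 (R 4.3.3), after a test on simulated data, with 5 contrasts and Benjamini-Hochberg adjustment within each. A probe set was called at an adjusted p under 0.05, and intervals are moderated 95% intervals. Groups are called apart where no array of one overlaps those of the other. Figures were drawn with matplotlib 3.10.9.

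Every ATG8 gene was named. Of the other lists up to 3 called members per comparison, or else the one with the smallest p, were named, with RAPTOR1B and the 5 genes most like ATG8E and ATG8B. AKINBETA1 was also named for light in WT, to set beside its call in rb10. The members and lists were chosen with earlier results of these data known. The labels call the samples biological replicates without naming separate cultures, so p-values reflect only how far these samples spread. Same-numbered arrays deviated from their group means with correlations from -0.0432 to 0.0734, none of 18 over 0.1, so replicate numbers were not taken as pairs. Alternatives changed the model (replicate number as a block, only the arrays of the 2 groups compared, or a robust and trended prior), the scaling (a second quantile normalization, or arrays shifted to one median), the probe sets tested (all of them, or not the lowest 25% by mean), the call rule (2-fold as well) and the arrays (each left out in turn). The 5 listed factors reported to act on ATG genes had no measured member.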

Additional observations from a re-analysis of the deposited data

How the results depend on the processing

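The 6 ATG8 genes called after light kept their direction in all 19 alternative fits. Leaving out a single array could not turn it, because the genotypes did not overlap for these genes. The count of ATG8 genes called lower after light, 6 of 9, was 4 with the replicate block (ATG8D adjusted p = 0.0633, ATG8H 0.0684) and with every probe set tested, 5 with the light groups alone, 7 with equal array medians, 1 with the 2-fold rule and 2 to 6 with single arrays left out, and with a trended and robust prior ATG8F (adjusted p = 0.0352) replaced ATG8C (0.0595). The replicate block left the other ATG8 counts as they were, at 0, 1, 0 and 0. The count for light in rb10, 1, was 0 with the rb10 groups alone and with the 2-fold rule, 2 with quantile normalization (ATG8C adjusted p = 0.0485), without the lowest 25% (ATG8C 0.0298) and with the trended prior (ATG8B 0.0273), and 0 to 1 with single arrays left out. The count for light in WT, 0, was 1 with the trended prior and 0 to 1 with single arrays left out, and that in the dark was 0 to 2, while the difference of the light effects had 0 throughout. Signs turned only for uncalled values near 0. ATG8G was -0.02 for light in rb10 and -0.08 for the difference of light effects with equal medians. With single arrays left out ATG8G ran from -0.06 to 0.09 for light in WT, -0.08 to 0.18 for light in rb10, -0.16 to 0.09 in the dark, -0.07 to 0.05 after light and -0.09 to 0.16 for the difference. ATG8D ran from -0.02 to 0.10 for light in rb10 and -0.10 to 0.06 in the dark, ATG8H from -0.16 to 0.03 in the dark, and, for light in WT, ATG8E from -0.04 to 0.10, ATG8F from -0.01 to 0.01 and ATG8I from -0.02 to 0.08. Over all probe sets, light in WT called 1204, but 2289 with every probe set tested and 555 at 2-fold; light in rb10 called 1254, but 580 with its groups alone, 2210, 484 and, without rb10 light replicate 2, 782. The dark comparison called 1, but 1761 without the array labelled rb10 dark replicate 3; after light 3355 were called, but 6251 with every probe set, 1197 at 2-fold and 2141 without rb10 light replicate 2. The difference called 380, but 597 with every probe set and 208 to 394 with single arrays left out. Counts with every probe set are out of 38408 and the main counts out of 17481, so they are not shares of one total. Counts of the 14 other autophagy genes, tried after the data were seen, ranged from 0 to 2 after light. Fits with every probe set adjusted over more probe sets, and fits with an array left out had fewer arrays. The cause of these shifts was not tested.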
